A study of Mus musculus with 116 samples.

Results

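The comparison set late 2-cell mouse embryos of a vehicle control group against early 2-cell embryos, using 1 total RNA library of each, 2 of the 116 samples of the series. Genes were taken at 10 FPKM or more in either library, which kept 6420 of 24028 gene symbols (26.7%). FPKM, a fragment count scaled to transcript length and library size, is the unit in which the authors deposited both libraries. A difference is given as late minus early on the log2(FPKM + 1) scale, after the median log2 ratio of the 4909 genes at 5 FPKM or more in both libraries, 0.60, was set to 0. Genes with a difference of 1 or more to either side are called higher or lower, about 2-fold beyond that median. The 1 FPKM added before the logarithm understates the fold of low genes.

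All embryos were wild type and came from C57BL/6N females, 8 weeks old and injected with PMSG and hCG, crossed with PWK males. The early embryos were collected 36 h after hCG, which induces ovulation. Embryos of the late control were taken as zygotes 23 h after hCG, held for 14 h in KSOM medium with 0.1% DMSO, released on entering the 2-cell stage and cultured for another 12 h. A parallel group, labelled mTBE, was held in 60 uM of DRB, which blocks elongation by RNA polymerase II, in place of DMSO. MII oocytes (13 h after hCG) and PN5 zygotes (30 h), of the same total RNA protocol, are given beside them. Each library was made from about 100 pooled oocytes or embryos after removal of ribosomal RNA. With 1 library a group, no difference below has a replicate check and no p-value was calculated. Stage cannot be told apart from the DMSO and the culture that only the late embryos had, or from the table in which each library was deposited.

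The mouse embryo starts life on RNA and protein that the growing oocyte laid down, and its own genome is switched on in a minor wave in the zygote and a major wave late in the 2-cell stage. Over the same hours the oocyte's messages are stripped of their poly(A) tails and degraded. A short-lived set of 2-cell genes, many of them multicopy families, is transcribed at this stage and then silenced again.

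At 10 FPKM or more the late library had 5867 genes and the early library 3717, with 3164 in both. All FPKM summed to 350614 in the late and 212707 in the early library, so that a fixed FPKM limit is not equal between them, here and in the counts of gained and lost genes below. Of the 6420 genes compared, 2443 (38.1%) were higher in the late embryos, 1117 (17.4%) were lower and 2860 (44.5%) were within 2-fold, with a median of 0.52. Counts of the gene lists below are to be read against these shares. A gene low in the early library was compared only if it was high in the late one, so the filter fixed its direction. The reverse holds for a gene low in the late library. A list of genes low in early embryos thus leans to the higher side by construction, and its share cannot by itself show a trait of the list. A difference of 2 or more was found for 1079 genes in the higher direction and 403 in the lower. Without setting the median ratio to 0 every value shifts up by 0.60, and the counts become 3405 higher and 639 lower, so each direction below is relative to that median. The 2443 higher genes made up 10.7% of the early library's summed FPKM and 37.9% of the late library's. FPKM is relative to the RNA sequenced, so that more of a transcript and less of the others cannot be told apart, nor can fewer cells and less RNA per cell.

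**Figure D1:**
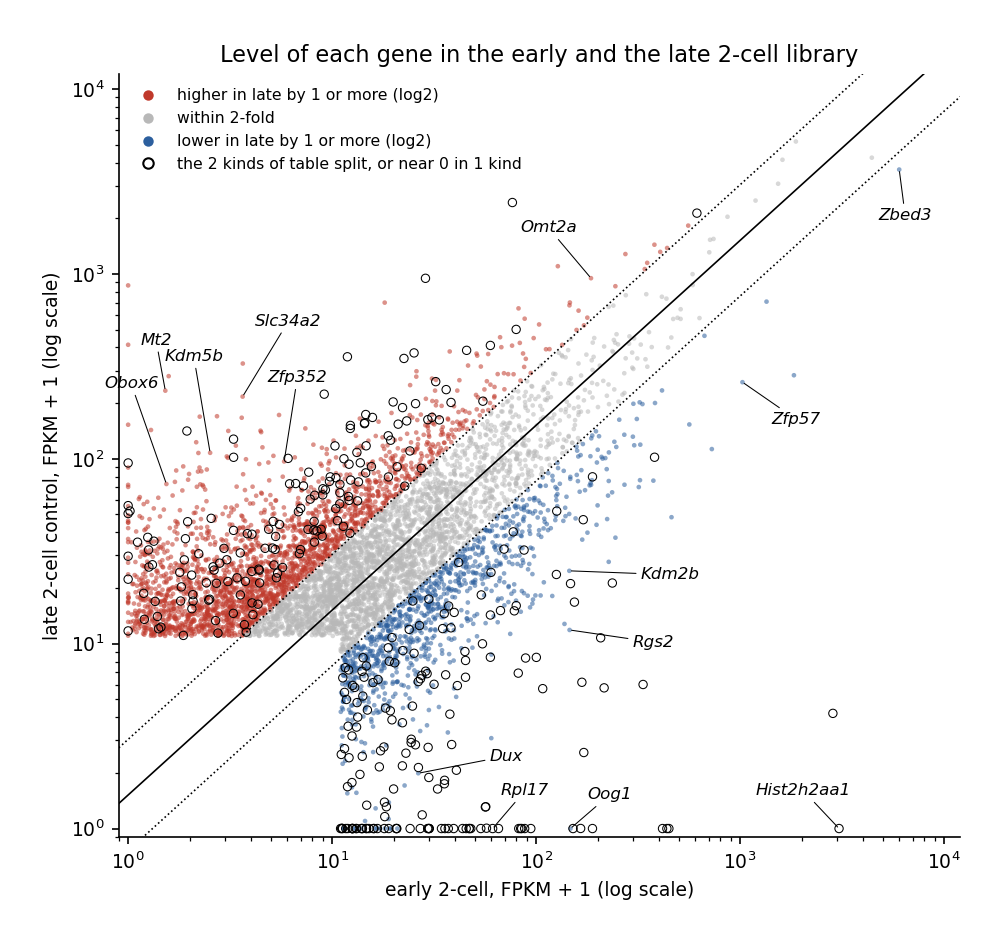
Level of each of the 6420 genes in the early (x axis) and late control (y axis) 2-cell libraries, FPKM + 1 on log scales. The solid line is the median ratio and the dotted lines are 2-fold to either side; red genes are higher, blue lower, and open circles are genes whose values split by kind of table. Mt2 stands at 0.521 FPKM early and 233 late, and Zfp57 at 1026 and 259.

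The libraries came from separately made tables. The MII library and the early 2-cell library each came alone in a file, while PN5 and both late 2-cell libraries shared another. PN5 minus MII crosses the same kinds of table and shares no library with late minus early. In that pair 223 of the 6420 genes (3.47%) were higher and 632 (9.84%) lower. Of the genes higher in late embryos 177 (7.25%) were also higher in PN5 than in MII, and of those lower in late embryos 279 (25.0%) were also lower there. Below 1 FPKM in all libraries of the shared table and at 10 FPKM or more in MII and early 2-cell stood 54 genes, and 9 showed the reverse. By a wider rule, in which every library of one kind stood at least 1 above every library of the other, 171 of the lower genes (15.3%) and 154 of the higher (6.30%) split by table. These shares were larger for the lower genes, but a gene listed at 0 in both MII and PN5 could not be marked by any of these rules. PN5 and MII also differ in stage, so the shares do not measure the effect of the table alone. The only replicates of an RNA group, 2 libraries of the inner cell mass made by Smart-seq2, differed by 1 or more for 188 of 4938 genes (3.81%), with a median absolute difference of 0.28. Markers of other cells were mostly low. Of 22 cumulus and granulosa genes 2 reached the comparison, their sum was 36.2 FPKM early and 81.2 late, mostly Serpine2, a gene that oocytes also held (90.9 in MII), and Fshr, Areg, Ereg, Btc and Inhba were among 6 listed at 0 in both. Of these markers Amhr2 stood at 0.144 and 16.7 FPKM, and its source was not tested. At 1 FPKM or more stood 2 of the 22 early and 7 late, beside 9505 and 12472 of all symbols. The sperm genes summed to 44.1 and 96.3 FPKM, and Odf2, the only one in the comparison, differed by 0.45.

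**Figure D2:**
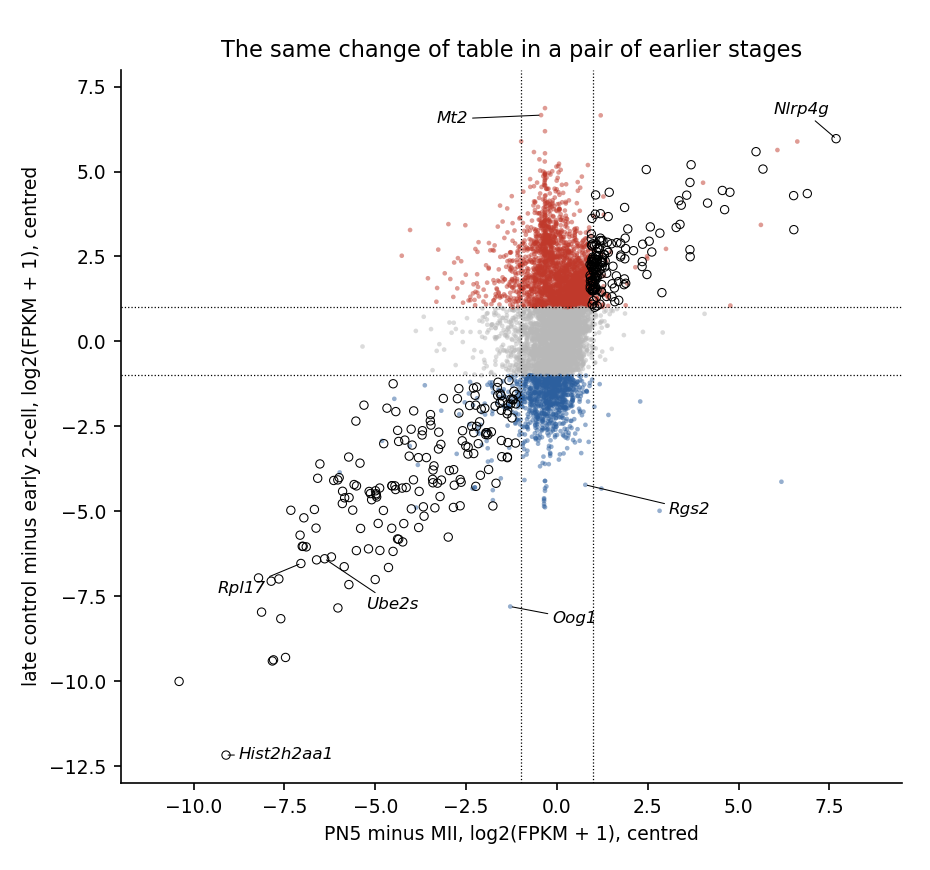
Late control minus early 2-cell (y axis) and PN5 minus MII (x axis) for the 6420 genes, both centred differences of log2(FPKM + 1). Open circles split by kind of table, a flag that uses all 5 libraries, and by construction lie toward the lower left (171 of the lower genes) or the upper right (154 of the higher). Mt2 differs by 6.66 on the y axis and -0.44 on the x axis, while Rpl17 is low on both.

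Genes were next grouped by their level in MII oocytes, a library that neither side of the comparison uses. The 508 genes below 1 FPKM in MII had a median difference of 2.95, with 491 higher and 13 lower. For the 1369 genes at 1 to 10 FPKM the median was 1.55, with 968 higher and 46 lower. The 4020 genes at 10 to 100 FPKM had a median of 0.10 and near-equal numbers in each direction, 936 higher and 849 lower. Among the 523 genes at 100 FPKM or more the median was -0.71, with 48 higher and 209 lower. The share of higher genes was thus larger in the classes lower in MII, in part by construction, since a gene low in MII had to be high in a 2-cell library to be compared at all. Of the 2443 higher genes, the 936 and 48 of the upper classes were at 10 FPKM or more in MII. MII also shares its kind of table with the early library and not with the late one.

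**Figure D3:**
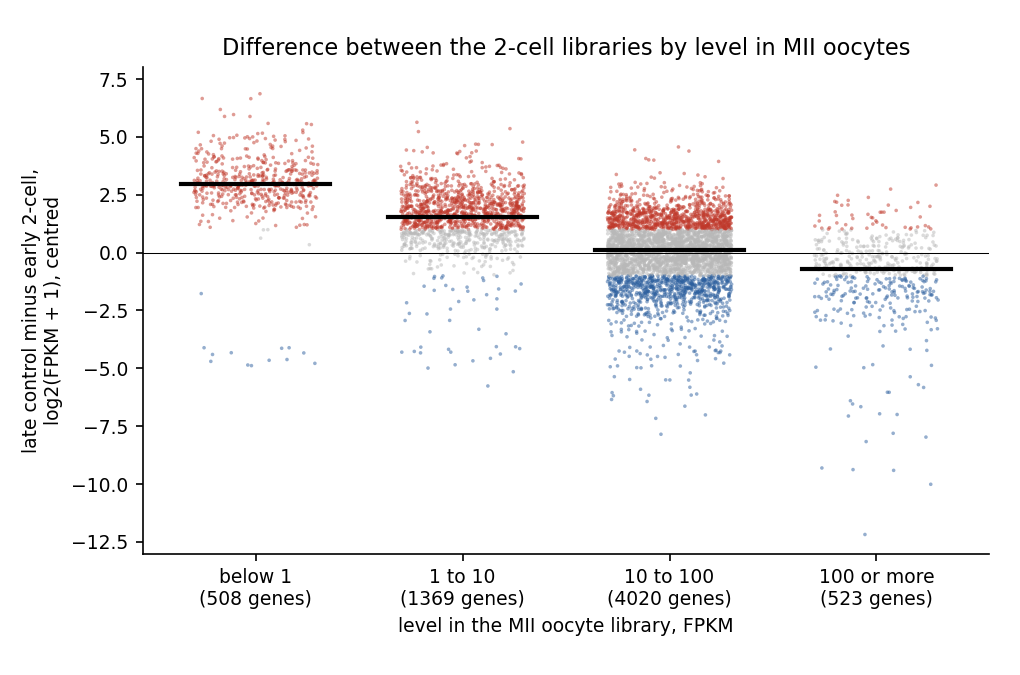
Difference between the late control and early 2-cell libraries (y axis, log2) for genes in 4 classes of level in the MII library (x axis, FPKM), each point a gene and each bar a median. The medians step down from 2.95 below 1 FPKM to -0.71 at 100 FPKM or more.

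A total of 481 genes (7.49%) were below 1 FPKM in the early and at 10 FPKM or more in the late embryos, here called gained. Of these 295 were below 1 FPKM in both MII and PN5, 136 were at 1 FPKM or more in MII, and 27 carried a table flag. In the mTBE library, which shares its table with the late control, 473 of the 481 stood at 1 FPKM or more and 225 at 10 or more. The reverse pattern, 10 FPKM or more early and below 1 late, was shown by 96 genes (1.5%). Of those lost genes 73 carried a table flag, 23 were small RNAs, and 19 were neither. Leaving out genes that differed the same way between PN5 and MII left 451 gained and 15 lost genes.

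The largest differences came from genes of many kinds, among them the 2-cell genes and metallothioneins described below. Slc34a2, a sodium-phosphate cotransporter, stood at 0.501 FPKM in MII, 0.496 in PN5, 2.64 early, 216 in the late control and 65.0 in mTBE embryos, a difference of 5.29. Tfrc, the transferrin receptor that takes up iron, was at 1.66, 3.96, 0.968, 76.1 and 31.9 FPKM in the same order, a difference of 4.69, and Ctsl, the lysosomal protease cathepsin L, at 0.917, 1.13, 2.097, 141 and 66.5, a difference of 4.91. In all 3 both late libraries stood above the other 3 libraries. The kinase gene Hipk1 was at 0.141 FPKM early and 61.0 late, the zinc finger gene Zscan5b at 0.862 and 90.0, and the uncharacterised AU015228 at 1.16 and 122, differences of 5.16, 5.01 and 5.23. Gm11517, Gm12789 and Gm4850, predicted genes, were listed at 0 early and stood at 71.3, 45.3 and 48.5 FPKM late. In the lower direction Ube2s, a ubiquitin-conjugating enzyme of mitotic exit, was at 333 FPKM early and 5.01 late, but also at 252 in MII and 2.78 in PN5. H2-Ke6, a mitochondrial dehydrogenase gene, was at 16.7, 17.2, 15.3, 0.286 and 1.81 FPKM in MII, PN5, early, late control and mTBE embryos, a difference of -4.27.

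The 2-cell genes, the multicopy families and regulators typical of the stage, were mostly higher in late embryos. Of 38 in the comparison 28 were higher and 5 lower, with a median of 2.70 beside 0.52 for all genes, of which 38.1% were higher and 17.4% lower. The list was drawn up knowing that such genes appear at the 2-cell stage. The median of the same genes between PN5 and MII was -0.08. AF067063, Tcstv1 and Tcstv3, a family expressed in 2-cell embryos, were listed at 0 in the early library and stood at 152, 54.4 and 49.6 FPKM in the late control. Of these, AF067063 and Tcstv3 were also higher in PN5 than in MII, at 1.90 and 5.91 FPKM against 0. Their summed level with that of BC061212 was 0 early, 255.9 late, 112 in mTBE embryos, 0 in MII and 9.07 in PN5. Copies of such families can share reads, and how shared reads were counted is not given in the sources used here, so sums over copies are the safer values. The 3 Trim43 genes, of the tripartite motif family, summed to 1.95 FPKM early and 186 late, a difference of 5.39, with 86.2 in mTBE embryos. Trim43b alone stood at 1.21 and 106 FPKM. The 5 Tdpoz genes summed to 4.91 and 117 FPKM, a difference of 3.72, and the 5 Usp17l genes, deubiquitinases, to 27.6 and 140 FPKM, a difference of 1.70. The 6 Pramel genes that are not on the list summed to 1.97 and 134 FPKM, a difference of 4.90.

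Not every 2-cell family was higher. The 5 Zscan4 genes, telomere-linked regulators whose expression is a hallmark of the 2-cell stage, summed to 18.8 FPKM early and 28.8 late, a difference of -0.01 after centring and thus at the median ratio, against 1.72 in MII and 1.51 in PN5. Rfpl4, an oocyte gene on the list, was at 459 and 452 FPKM, a difference of -0.62. Sp110 was lower, at 75.6 and 26.0 FPKM, a difference of -2.11, and so was Zfp750, at 36.3 and 9.67. Dux, the double-homeobox factor that activates many 2-cell genes, stood at 0.105 FPKM in MII, 2.24 in PN5, 25.4 in early 2-cell, 0.991 in the late control and 1.68 in mTBE embryos, a difference of -4.33. Dux was high in the early 2-cell library alone. Neither table flag could mark such a gene, since both need MII to be high as well, so stage and table cannot be told apart for Dux. Its relative Duxbl1 was at 16.5 FPKM in MII, 11.6 early and listed at 0 in each library of the shared table. Gm6763, Gm8764, Gm21304, Gm21312 and Gm20765, 5 protein-coding genes that follow one another in RefSeq, behaved alike, at 15.2 to 18.1 FPKM early, 0.0171 to 0.0175 in MII and listed at 0 in PN5 and the late control. These copies can share reads too, so that their values are uncertain one by one.

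Zfp352, a zinc finger gene without introns that is a standard 2-cell marker, was listed at 0 in MII and stood at 0.241 FPKM in PN5, 4.82 in early embryos, 95.7 in the late control and 70.3 in mTBE embryos, a difference of 3.45. Its upstream region is shown because it holds a tandem array of the bicoid-type homeobox motif TAATCC, the kind of site that OBOX homeodomain proteins are known to favour. The 250 bases before the annotated start lie at chr4:90218570-90218819 on the plus strand of GRCm38.p6, the RefSeq build of the promoter windows, while the authors' values were made on mm9. Capitals mark each match on either strand, and none overlaps another motif searched.
Zfp352 upstream: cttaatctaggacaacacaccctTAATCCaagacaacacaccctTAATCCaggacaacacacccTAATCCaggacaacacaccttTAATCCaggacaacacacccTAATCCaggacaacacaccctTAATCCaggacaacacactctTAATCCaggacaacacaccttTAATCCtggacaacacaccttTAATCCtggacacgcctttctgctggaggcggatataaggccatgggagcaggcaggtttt
The 9 matches start between -227 and -61 from the annotated start and are spaced 20 or 21 bases apart. Of 27025 RefSeq windows (250 bases before to 50 after a start), 1 held as many, and that was this one. At least 1 match was present in 7.15% of all windows, in 5.94% of the windows of genes compared, in 7.03% of those higher and in 5.55% of those lower, so the motif by itself did not separate the directions. Among the 2-cell genes 12 of 38 had a window, and 4 of the 12 held the motif. A match is a run of letters and not evidence of binding.

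Obox genes encode those oocyte and early embryo homeodomain proteins, and members differed in direction. Obox6 was listed at 0 in MII and PN5 and stood at 0.540 FPKM early, 72.1 in the late control and 29.8 in mTBE embryos, a difference of 4.97. Obox3 was at 0.353, 0.347, 1.24, 88.7 and 26.7 FPKM in the same order, a difference of 4.72. Obox1, abundant in the oocyte, was lower, with 317 FPKM in MII, 166 early and 85.8 late, a difference of -1.54, and Obox5 differed by -0.25 from 325 FPKM. Summed over 5 Obox genes the level was 492 FPKM early and 661 late, a difference of -0.18, which without centring is above 0. The late library thus held a different mix of Obox messages at a near-equal total. Of other factors tied to genome activation 11 of 28 (39.3%) were higher and 6 (21.4%) lower, with a median of 0.60, close to all genes (38.1%, 17.4% and 0.52). Gabpa, an ETS factor, stood at 0.163 and 30.4 FPKM, Klf9 at 0.376 and 23.7, and Yap1, the Hippo pathway coactivator stored by the oocyte, at 226 and 663, a difference of 0.95. Klf17, a Krüppel-like factor of the zygote, differed by -0.81, from 227 to 196 FPKM.

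Metallothioneins, small cysteine-rich proteins that bind zinc and copper, included Mt2, whose difference was exceeded only by those of 3 small RNAs among the genes compared. Mt2 was at 0.0772 FPKM in MII, listed at 0 in PN5, and at 0.521 in early, 233 in late control and 128 in mTBE embryos, a difference of 6.66. Mt1 was listed at 0 in MII and PN5 and stood at 0.294, 142 and 40.6 FPKM in those 3 libraries, a difference of 6.19. Both were thus near 0 in 3 stages and abundant only in the late libraries among the 5 compared. Of 20 listed metallothionein and zinc transport genes, 11 reached the comparison. Of these 7 were higher and none lower, with a median of 1.81 and -0.33 between PN5 and MII. The importer Slc39a10 stood at 22.3 and 136 FPKM and the exporter Slc30a1 at 7.27 and 43.1, differences of 1.95 and 1.81. Mtf1, the zinc-sensing factor that activates metallothionein genes, was at 28.1 and 33.4 FPKM, a difference of -0.36, within 2-fold.

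The region before Mt2 is shown because MTF1 is known to bind metal response elements, whose core is TGCNCNC (N any base). The 250 bases before the annotated start lie at chr8:94172368-94172617 on the plus strand of GRCm38.p6, again from RefSeq. Capitals mark matches on either strand, which overlap no other motif searched.
Mt2 upstream: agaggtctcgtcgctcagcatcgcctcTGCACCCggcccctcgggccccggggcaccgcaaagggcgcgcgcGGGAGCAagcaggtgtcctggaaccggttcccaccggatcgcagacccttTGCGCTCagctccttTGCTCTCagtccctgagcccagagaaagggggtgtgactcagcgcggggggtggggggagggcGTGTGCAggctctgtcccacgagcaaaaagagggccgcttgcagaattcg
These 250 bases hold 5 matches, and the whole Mt2 window with the 50 bases after the start holds 6, a number that 0.207% of all windows reach. The Mt1 window holds 3, which 6.93% of windows reach. All 9 windows found for the list's 11 genes in the comparison had at least 1 match, but the core is loose. It was present in 50.4% of all windows, 58.6% of those of higher genes and 60.5% of those of lower genes.

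**Figure D4:**
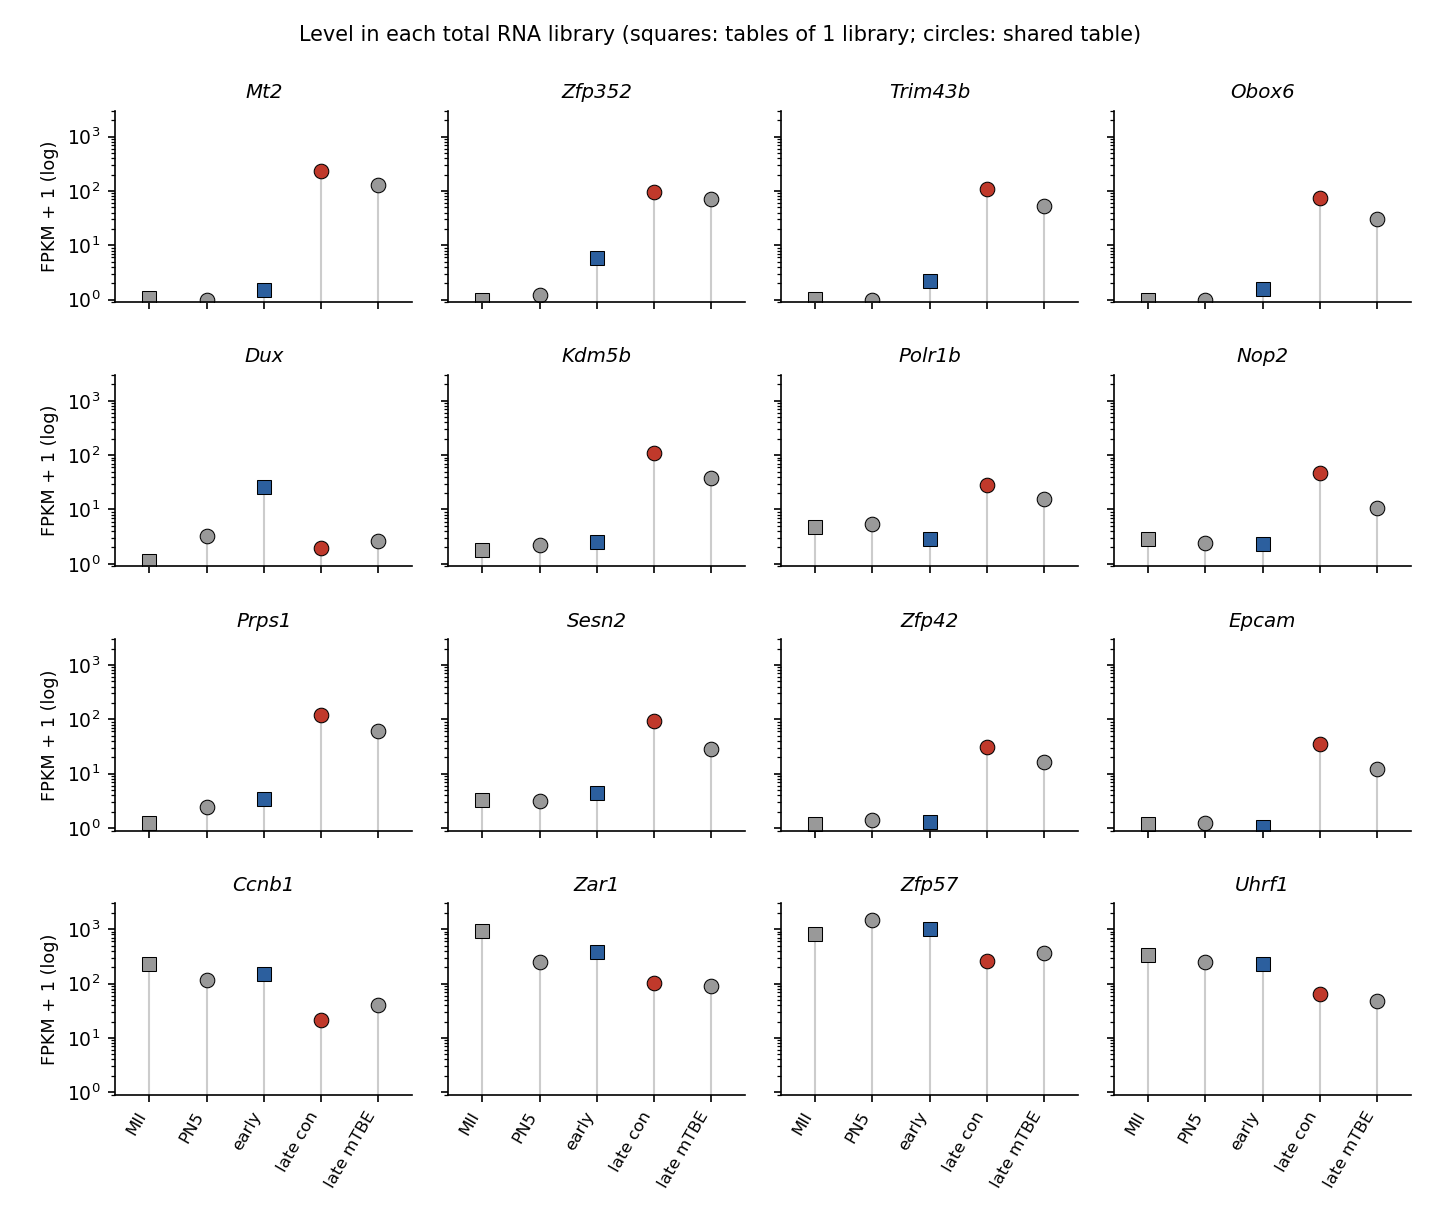
Level of 16 genes in each of the 5 total RNA libraries, FPKM + 1 on a log scale. Squares are tables of 1 library and circles the shared table; blue marks the early and red the late control library, grey the other 3. Mt2, Zfp352, Trim43b and Obox6 are high in both late libraries, Dux in the early library, and Ccnb1, Zar1, Zfp57 and Uhrf1 are lower in both late libraries than in the other 3.

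RNA polymerase I transcribes ribosomal RNA. Of 14 genes for its subunits and initiation factors 12 (85.7%, beside 38.1% of all genes) were higher and none lower, with a median of 2.20 and -0.49 between PN5 and MII. Taf1d, a subunit of the promoter selectivity factor SL1, was at 7.67 FPKM in MII, 10.4 in PN5, 1.34 early, 69.7 in the late control and 36.9 in mTBE embryos, a difference of 4.32. Polr1b, the second largest subunit, went in the same order from 3.80 and 4.43 through 1.91 to 27.1 and 14.5 FPKM, a difference of 2.67. Ubtf, which opens the ribosomal gene for the polymerase, stood at 2.52 and 41.3 FPKM, and Rrn3, which joins polymerase and promoter, at 22.8 and 79.4, differences of 2.98 and 1.15. Polr1d, shared with polymerase III, was at the median ratio, with a difference of 0.08. Taf1a was listed at 0 in early 2-cell and MII and stood at 114 FPKM in PN5, so its difference moved with the table.

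Of 86 ribosome biogenesis factors 41 (47.7%) were higher and 10 (11.6%) lower, beside 38.1% and 17.4% of all genes, with a median of 0.91 beside 0.52. Nop2, a nucleolar methyltransferase of ribosomal RNA, was at 1.27 and 46.2 FPKM, with 9.68 in mTBE embryos, a difference of 3.77, and Nol11, of the small subunit processome, at 0.240 and 26.8, a difference of 3.88. Of the factors abundant in the oocyte some were lower, such as the kinase Riok1 at 105 and 36.8 FPKM, the GTPase Bms1 at 83.1 and 13.9, and nucleophosmin, Npm1, at 86.2 and 51.8, whereas Eif6, with 151 FPKM in MII, was within 2-fold at 97.6 and 109. The windows of these genes held the ETS motif CCGGAAG in 39.1% of 69 cases, beside 20.4% of the windows of all genes compared, and the E-box CACGTG in 20.3%, beside 10.7%. Both strands were searched. Over all genes the ETS motif was present in 19.5% of windows of higher and 22.6% of lower genes. Of 19 listed host genes of small nucleolar RNAs, 6 reached the comparison. All 6 were higher, with a median of 2.66, among them Snhg1 at 2.06 and 37.98 FPKM.

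Ribosomal protein genes could not be read the same way. Of 38 in the comparison 9 were higher and 20 lower, with a median of -1.59, but the same genes had a median of -3.62 between PN5 and MII, and 18 split by table. Rpl17 was at 166 FPKM in MII and 60.2 early, and at 0.588, 0 and 1.38 in PN5, the late control and mTBE embryos. Rpl11, Rpl10, Rpl23a, Rpl28 and Rps28, required in every cell like Rpl17, were also listed at 0 in the late control. In that pair 32 of the 38 were lower and none higher, and all 20 genes lower in late embryos were among the 32, so that stage and table cannot be told apart for the lower genes. Rpl41 had 173 FPKM in MII, 48.0 in PN5, 24.9 early and 297 late, and Rplp1 had 55.4, 6.37, 10.5 and 113 in the same order.

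Translation factors sat close to the median ratio as a group, 10 of 40 higher and 7 lower, with a median of 0.03. The general and the oocyte poly(A)-binding proteins, the latter from the list of message storage and decay, had opposite differences. Pabpc1, the general poly(A)-binding protein, was at 3.29 FPKM in MII, 2.23 in PN5, 0.989 early, 81.8 in the late control and 45.7 in mTBE embryos, a difference of 4.78. Pabpc1l, its embryonic and oocyte relative, was at 113, 79.0, 119, 17.1 and 17.3 FPKM in the same order, a difference of -3.33, and Pabpn1l differed by -3.39. The late libraries were high in the general form and low in the oocyte forms. The oocyte cap-binding protein Eif4e1b was at 667 and 462 FPKM, a difference of -1.13. Of Eif4a1 and Eef1a1, both lower, both also differed the same way between PN5 and MII.

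Polymerase II genes, 68 in the comparison, had 26 higher and 6 lower with a median of 0.50, near that of all genes. Tceb3, the elongin A subunit that speeds elongation, was at 3.52 and 63.8 FPKM, a difference of 3.24, and the P-TEFb regulators Hexim1 and Cdk9 were at 4.01 and 55.9 and at 3.34 and 34.0. Gtf2a1, a subunit of the general factor TFIIA, stood at 14.8 and 166 FPKM but also at 50.2 in MII and 125 in PN5, so that its values split by table. The Mediator subunit Med17 was at 92.96, 90.3, 38.6, 4.73 and 4.84 FPKM in MII, PN5, early, late control and mTBE embryos, a difference of -3.39. Med17 was thus lower in both late libraries than in the other 3. Of 44 splicing genes 12 (27.3%) were higher and 13 (29.5%) lower, with a median of 0.10, beside 38.1%, 17.4% and 0.52 for all genes. Srsf1 was at 8.55 and 86.6 FPKM and Prpf6, a tri-snRNP protein, at 73.6 and 10.3, a difference of -3.33. Promoter motifs of general use were present in windows of both directions, and the gaps between their shares were not tested. The E-box CACGTG was present in 11.3% of windows of higher and 8.26% of lower genes. The GC box GGGCGG was present in 68.8% of windows of higher and 66.1% of lower genes, the CCAAT box in 41.7% and 39.8%, the TATA box TATAAA in 6.75% and 7.40%, and the NRF1 motif in 12.3% and 13.3%.

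Lipid and nucleotide synthesis genes are read against the 38.1% of all genes that were higher and the 17.4% that were lower. Of 34 listed sterol and fatty acid synthesis genes, 15 reached the comparison. Of these 10 were higher and none lower, with a median of 1.57. Scd1 and Scd2, the desaturases that make monounsaturated fatty acids, were at 0.0617 and 0.166 FPKM early and 20.0 and 16.6 late, and Sqle, of cholesterol synthesis, at 6.87 and 69.2, a difference of 2.55. Scap, the escort of the sterol-sensing factor SREBP, was within 2-fold at 112 and 98.6 FPKM. Of 26 nucleotide synthesis genes 14 (53.8%) were higher and 6 (23.1%) lower, above the share of all genes in both directions, with a median of 1.12. Prps1, which makes the ribose donor of nucleotides, was at 0.250 FPKM in MII, 1.45 in PN5, 2.37 early, 117 in the late control and 58.8 in mTBE embryos, a difference of 4.52. Ppat, the first committed step of purine synthesis, was at 0.211 and 29.2 FPKM, a difference of 4.04, while Ctps, the CTP synthase, abundant in the oocyte, differed by -1.04.

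Amino acid supply genes and targets of ATF4, the stress factor that raises them, were higher for 8 of 14 and lower for 2, with a median of 1.12. Psat1, of serine synthesis, was at 0.273 FPKM early and 46.1 late, a difference of 4.61, and Gcsh, of glycine cleavage, at 1.73 and 169, a difference of 5.36. Atf4 itself was at 72.8 and 155 FPKM, a difference of 0.48, and Ddit4 was lower, at 126 and 67.8. Energy genes were mixed. Glycolysis genes had a median of -0.19, 8 of 19 higher and 5 lower. Without 3 genes that differed the same way between PN5 and MII, 8 of 16 were higher and 2 lower, with a median of 0.74. That step could remove only lower members, among them Eno1, at 24.1 FPKM in MII, 13.7 early and near 0 in the shared table. The glucose transporter Slc2a3 was listed at 0 early and 16.0 FPKM late. The oocyte lactate dehydrogenase subunit Ldhb was at 1267 FPKM in MII, 621 in PN5, 562 early and 152 late. Ldhb was lower by the same rule between PN5 and MII as well, whereas Ldha was at 2.03 and 16.8 FPKM. Oxidative phosphorylation genes had a median of 0.61, 17 of 43 higher and 11 lower, and the proteasome a median of -0.29, 5 of 34 higher and 10 lower, with the activator Psme4 at 31.0 and 233 FPKM as its main exception.

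Chaperones included 8 of 23 higher (34.8%) and 4 lower (17.4%), with a median of 0.61. These were near the values of all genes (38.1%, 17.4% and 0.52). Without 3 chaperones that differed the same way between PN5 and MII, 8 of 20 were higher and 1 lower. The median was then 0.73, beside 0.55 for all genes treated alike. The endoplasmic reticulum proteins Hspa5 and Canx were at 30.0 and 31.3 FPKM early and 173 and 194 late, and the cochaperone Bag3 at 0.213 and 16.1. Of the 8 chaperonin subunits 3 (37.5%) were higher, again near the share of all genes. Cct6a was at 0.395 FPKM early and 34.8 late, although the 8 act in 1 complex, and Cct2 differed by -0.05. Of 27 listed targets of p53, 14 reached the comparison. Of these 11 (78.6%, beside 38.1% of all genes) were higher and none lower, with a median of 1.77. Sesn2, a stress sensor, was at 2.33 FPKM in MII, 2.16 in PN5, 3.39 early, 92.8 in the late control and 28.0 in mTBE embryos, a difference of 3.81. Mdm2, the ligase that restrains p53, was at 24.8 and 90.0 FPKM and Cdkn1a, the cyclin kinase inhibitor p21, at 5.49 and 37.1, while Trp53 itself was within 2-fold at 21.8 and 18.8. Of 28 listed immediate early genes, 11 reached the comparison. Of these 7 (63.6%) were higher and 1 (9.09%) lower, beside 38.1% and 17.4% of all genes. The lower one was Dusp1 at 66.0 and 31.6 FPKM, while its relative Dusp6 was at 0.484 and 24.9.

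**Figure D5:**
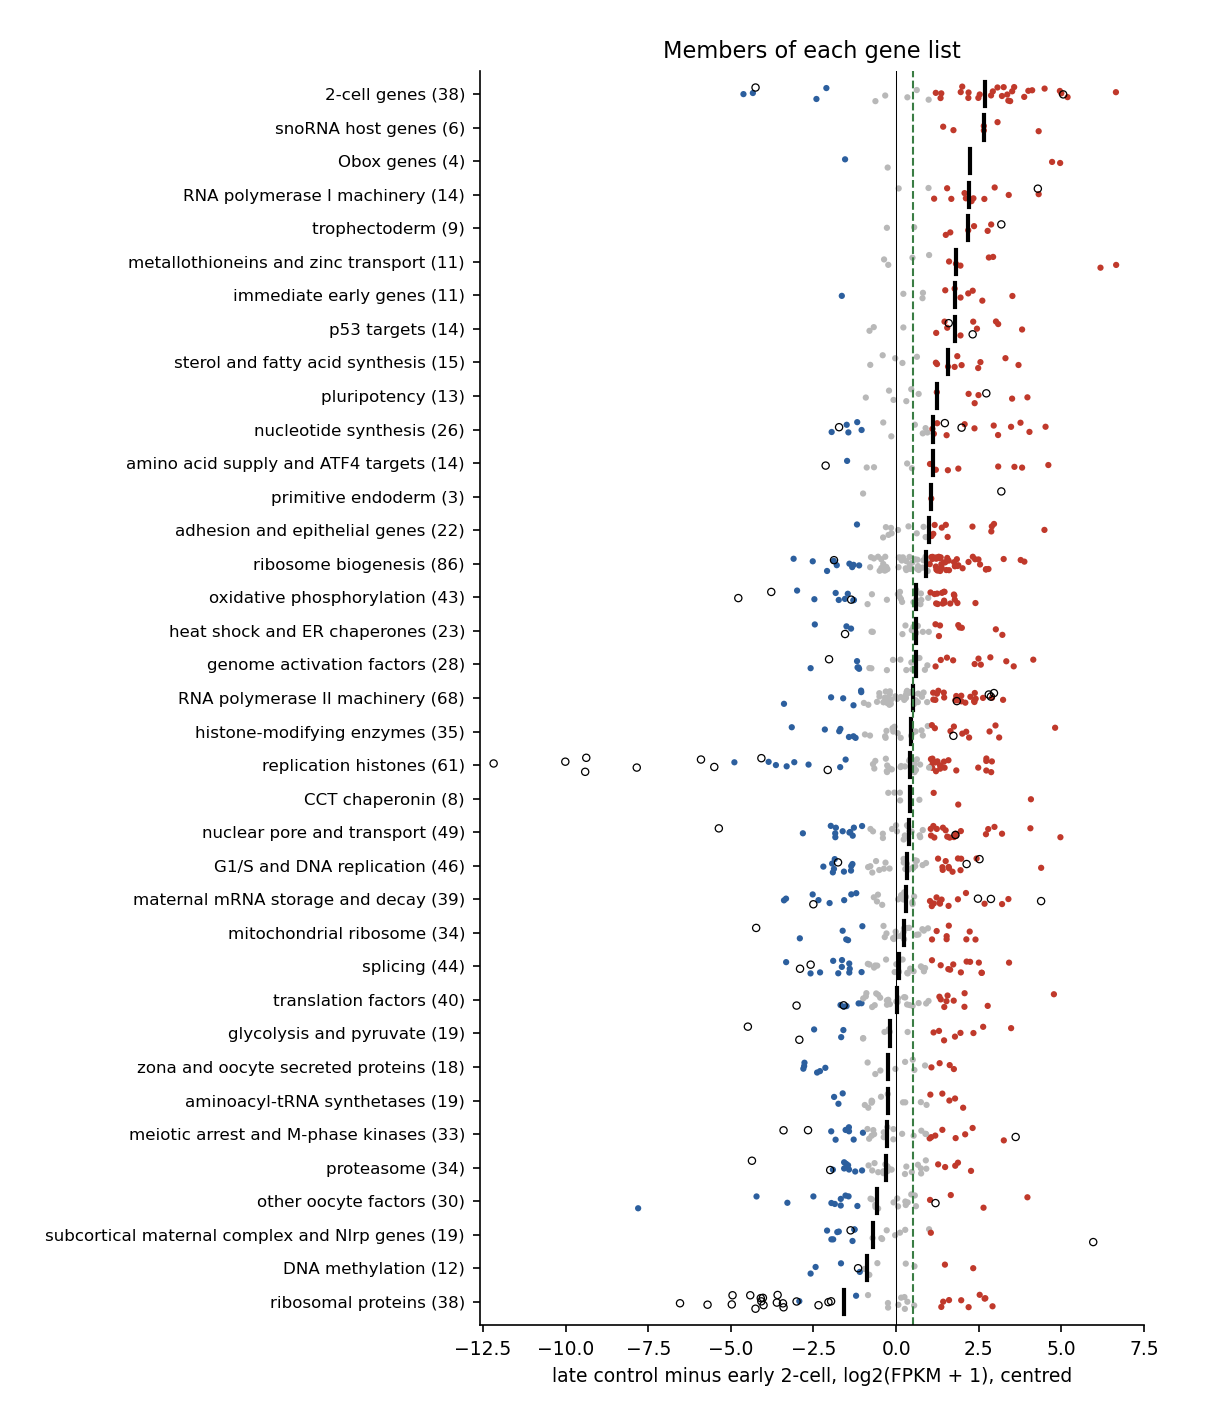
Members of each gene list with 3 or more genes in the comparison (number in brackets), ordered by median, on the centred late minus early difference (x axis, log2). Points are genes, red higher, blue lower, grey within 2-fold and open where the tables split; black bars are medians and the green dashed line the median of all genes, 0.52. The 2-cell genes have the highest median, 2.70, and ribosomal proteins the lowest, -1.59, with most of their open points to the left.

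Genes known from the later lineages of the blastocyst were higher in part. Their lists are read against all genes, of which 38.1% were higher and 17.4% lower, with a median of 0.52. Of all compared genes below 1 FPKM in MII 96.7% were higher, and of those at 1 to 10 FPKM 70.7%. Members low in the early library had to be high late to be compared. Of 13 pluripotency genes 7 (53.8%) were higher and none lower, with a median of 1.23. Zfp42, also known as Rex1, was at 0.198 FPKM in MII, 0.432 in PN5, 0.278 early, 29.5 in the late control and 15.3 in mTBE embryos, a difference of 3.98, and Tbx3 at 1.91 and 49.3, a difference of 3.51. Pou5f1, the core pluripotency factor Oct4, which the oocyte stores, was within 2-fold at 252 and 203 FPKM, as were Sall4 and Lin28a. Of 22 listed trophectoderm genes, of the outer blastocyst layer, 9 reached the comparison. Of these 7 (77.8%) were higher and none lower, with a median of 2.18, among them Esx1 at 1.19 and 23.5 FPKM. Of 3 primitive endoderm genes 2 were higher, Gata4 at 13.8 and 46.1 FPKM and Dab2, whose tables split, at 1.22 and 29.6, while Lamb1 was at 52.6 and 39.7. Dab2 was also counted among the trophectoderm genes. Adhesion and epithelial genes were higher for 11 of 22 (50%) and lower for 1 (4.55%), with a median of 0.99. Epcam, a surface adhesion molecule, was at 0.183, 0.241, 0.0369, 34.4 and 11.3 FPKM in MII, PN5, early, late control and mTBE embryos, a difference of 4.49, and the tight junction gene Cldn6 at 1.40 and 27.5 early and late. Cadherin and catenin genes were present from the oocyte on, with Cdh1 at 90.4 FPKM in MII, 13.4 early and 55.9 late, and Ctnnb1 at 131, 58.6 and 68.0.

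Of 35 histone-modifying enzymes 12 (34.3%) were higher and 7 (20.0%) lower, with a median of 0.46, close to all genes (38.1%, 17.4% and 0.52). Kdm5b, a demethylase of histone H3 lysine 4, was at 0.770 FPKM in MII, 1.26 in PN5, 1.52 early, 107 in the late control and 37.2 in mTBE embryos, a difference of 4.81. Kdm5a, of the same family, was at 0.105 and 12.5 FPKM, and Suz12, a core Polycomb repressive complex 2 subunit, at 50.4 and 360.4, a difference of 2.21. Kdm2b, which recruits a variant Polycomb complex to CpG islands, was lower, with 153, 164, 144, 23.8 and 16.8 FPKM in the 5 libraries in order of MII, PN5, early, late control and mTBE, a difference of -3.16. Pcgf1, another subunit of that complex, was also lower, at 113 and 51.7 FPKM, as was Setdb1, a methyltransferase of histone H3 lysine 9, at 65.5 and 21.7. Outside that list the NuRD subunit Mta2 was at 0.721 FPKM early and 85.4 late, a difference of 5.05.

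DNA methylation genes had a median of -0.88, with 2 of 12 higher and 5 lower. Uhrf1, which brings DNA methyltransferase 1 to newly copied DNA, was at 336 FPKM in MII, 243 in PN5, 224 early, 62.2 in the late control and 45.9 in mTBE embryos, a difference of -2.44. Zfp57, the maternal factor that guards imprinted regions, was at 809, 1506, 1026, 259 and 365 FPKM in the same order, a difference of -2.59. In both genes the late libraries were below the other 3. Tet3, the oxidase of the paternal genome, differed by -1.10, and Dppa3, which shields methylated DNA in the zygote, by 0.29.

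Replication histones cannot be read gene by gene, since their copies are near-identical. Of 61 in the comparison 21 were higher and 17 lower, with 5 near 0 in 1 kind of table only. Between PN5 and MII 20 of the 61 differed the same way. Without those, 17 of 41 were higher and 1 lower. Summed over copies, H2B genes were at 1053 FPKM early and 3696 late, a difference of 1.21, H4 genes at 4169.65 and 7245, a difference of 0.19, and H3 genes at 2848 and 3074, a difference of -0.49. Between PN5 and MII these sums differed by 0.61 for H2B, 0.93 for H4 and -0.53 for H3. The H2A sum was 6451 and 1241 FPKM, a difference of -2.98, and it was also lower in PN5 than in MII, by -2.68, where Hist2h2aa1 and Hist2h2aa2 made up most of the MII sum and were near 0 in PN5. Cell cycle genes included the largest difference of the G1/S list, Ccne1, cyclin E1, at 2.21 FPKM in MII, 3.16 in PN5, 3.45 early, 141 in the late control and 62.6 in mTBE embryos, a difference of 4.39. Over that list 14 of 46 were higher and 10 lower, with a median of 0.33. Dbf4, the activator of the replication kinase CDC7, was at 66.5 and 400.5 FPKM and Rpa1, which coats single-stranded DNA, at 37.5 and 11.7. Nuclear transport genes had 20 of 49 higher and 12 lower, with the importin Kpna1 at 0.192 FPKM early and 55.9 late, and the oocyte importin Kpna7 at 108 and 41.0. Kpna2 was lower, but in the shared table it was already at 24.7 FPKM in PN5 against 379 in MII.

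Of 5 lists of oocyte messages, 3 held more lower than higher genes, 1 held equal numbers and 1 held more higher genes. In each, the median was below that of all genes (0.52) and the share of lower genes above that of all genes (17.4%). Among all compared genes at 100 FPKM or more in MII, 40.0% were lower. The share of higher genes was above the 38.1% of all genes only in the list of message storage and decay (41.0%). Subcortical maternal complex and Nlrp genes, which encode an assembly under the oocyte and early embryo membrane, had 2 of 19 higher and 9 lower, with a median of -0.71 that stays below 0 without centring (-0.11). Ooep was at 579 FPKM in MII, 825 in PN5, 302 early, 117 in the late control and 155 in mTBE embryos, a difference of -1.96, and Nlrp5, also called Mater, at 139.8 and 61.3 early and late, a difference of -1.78. Zbed3, the most abundant gene of the early library, was at 6021 and 3667 FPKM, a difference of -1.32, while Khdc1b was higher, at 438 and 1379.9. Nlrp4g was listed at 0 in MII and early 2-cell and stood at 257 FPKM in PN5, so its difference moved with the table. Other oocyte factors had 5 of 30 higher and 11 lower, with a median of -0.58, which without centring becomes 0.02. Rgs2, which damps G protein signals, had 165, 356, 145, 10.9 and 16.1 FPKM in MII, PN5, early, late control and mTBE embryos, a difference of -4.22, and the antiapoptotic Bcl2l10 was at 1346 and 707 early and late. Oog1 stood at 399, 205 and 146 FPKM in MII, PN5 and early embryos and below 1 in both late libraries, with PN5 below MII by the same rule, but its copy Oog3 was at 145 and 699, and the 4 Oog genes summed to 413 and 758 FPKM, a difference of 0.27.

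Secreted oocyte products were split as well, with 4 of 18 higher, 6 lower and a median of -0.25, which without centring becomes 0.36. Oas1d and Oas1e, oocyte members of the oligoadenylate synthetase family, were at 318 and 167 FPKM early and 69.3 and 35.5 late, differences of -2.78 and -2.81, and the oocyte transcription factor Nobox at 42.1 and 11.5. Omt2a and Omt2b, by contrast, were at 185 and 379 FPKM early and 947 and 1438 late, differences of 1.75 and 1.32, although both are oocyte transcripts, with 189 and 317 FPKM in MII. The growth factors of the oocyte, Bmp15 and Gdf9, were within 2-fold of the median ratio, with differences of 0.88 and 0.27. Messages kept by the oocyte thus included both higher and lower genes. Lower genes were nonetheless a larger share of each list of oocyte messages than of all genes (17.4%). Of all compared genes, however, 21.1% were lower at 10 to 100 FPKM in MII and 40.0% at 100 or more. The lists were not compared with genes of like level in MII, so the larger share cannot be called particular to them.

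Meiotic and M-phase genes had 9 of 33 higher and 9 lower, with a median of -0.26, which without centring becomes 0.34. Ccnb1, cyclin B1, was at 232, 113, 146, 20.1 and 38.9 FPKM in MII, PN5, early, late control and mTBE embryos, a difference of -3.41, and lower in PN5 than in MII by the same rule. Wee2, the oocyte kinase that holds M phase back, was at 171 and 526 FPKM, while its somatic relative Wee1 was at 1.21 and 13.3, differences of 1.02 and 2.09. The synaptonemal gene Sycp3 was at 1.55 and 46.6 FPKM, with 3.25 in MII and 9.41 in PN5, and its values split by table. Genes that store and destroy maternal messages were higher for 16 of 39 and lower for 9, with a median of 0.30. Of the storage proteins of the oocyte several were lower, with Zar1 at 906, 245, 379.6, 101 and 90.5 FPKM in the same order, Zar1l at 44.9 and 12.7 early and late, and Ybx2 at 241 and 123. Of these 3, Zar1 was also lower in PN5 than in MII. Lsm14b, another storage protein, was within 2-fold at 165 and 281 FPKM, a difference of 0.16. The CCR4-NOT deadenylase subunits differed among themselves, as Cnot7, a catalytic subunit, was at 44.6 and 385 FPKM and Cnot3, a structural one, at 78.3 and 28.9. Cnot7 was also higher in PN5 than in MII, at 368 and 122 FPKM. Btg4, the adaptor of maternal message clearance, was within 2-fold at 711 and 1529 FPKM, a difference of 0.50, and the somatic adaptor Tob1 was at 2.20 and 50.3, a difference of 3.40.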

How the data were processed

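The authors deposited FPKM values per gene, 1 table for each of MII and early 2-cell and 1 table with PN5 and both late 2-cell libraries. Build mm9 and the tools TopHat2 2.1.1, CASAVA 1.8 and Cufflinks 2.1.1 are listed in the submitters' processing notes. Which tool made which table, the strand setting and the treatment of multimapping reads were not given in the sources used here, and with FPKM alone the depth, and so the counting error, is unknown. Each total RNA group holds 1 library, so that no interval or test could be calculated.

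Rows with 1 symbol were summed. Genes at 10 FPKM or more in either library were compared as log2(FPKM + 1), setting to 0 the median ratio of genes that reached 5 FPKM in both, and counted at a difference of 1 or more, using Python 3.11.15, numpy 2.4.6 and pandas 2.3.3. The calculation was checked on simulated data. Named genes were the 20 largest differences a direction without small RNAs and genes near 0 in 1 kind of table, up to 4 members of each list by level and 2 by difference, and the 10 highest gained and lost genes without a flag. The genes compared, the 39 lists and the rules were chosen with earlier results of these data known, and other named genes (such as Ldha, Wee1, Kdm5a, Hexim1, Cdk9, Setdb1, Kpna7, Cnot3, Ybx2, Zar1l, Pabpc1l, Oog3, Cct2, Rpa1, Gdf9, Lin28a, Cdh1, Cdkn1a, Nobox and the family sums) after their values were seen. Promoter windows came from RefSeq on GRCm38.p6 and matched 4851 of the 6420 symbols (75.6%), under the share at which a comparison of windows over the set would be complete. Alternatives were other centring, scaling, pseudocount, filters and size rules, and leaving out flagged genes. No value column lacked a sample (0). A gene of the lists is not reported here.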

Additional observations from a re-analysis of the deposited data

How the results depend on the processing

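With 1 library a group and unknown depth, none of the counts has a replicate check. The main counts were 2443 higher, 1117 lower, 481 gained and 96 lost genes, with 63 genes near 0 in 1 kind of table. Without centring 3405 genes were higher and 639 lower, so that 84.2% of counted genes were higher in place of 68.6%. With a filter of 20 FPKM the counts were 1544 and 733, with a filter of 1 FPKM 3938 and 2114, and at a difference of 2 or more 1079 and 403. Gained genes numbered 273 with a limit of 0.5 FPKM early and 176 with 20 FPKM late. Lost genes numbered 41 with 20 FPKM early, 42 without genes near 0 in 1 kind of table, 23 without genes whose tables split and 15 without genes that differed the same way between PN5 and MII, an alternative chosen after seeing the data. Genes near 0 numbered 95 at 5 FPKM. Of 3204 list medians and gene values recomputed, 2702 moved by less than the spread between the inner cell mass replicates (0.28), 499 moved further, and 3 whose main value was 1 or more in size changed sign. Those 3 were the median of ribosomal proteins, 0.15 with a filter of 20 FPKM, 0.45 without genes whose tables split and 0.96 without genes that differed the same way between PN5 and MII, a setting that could remove only lower members. No paired analysis was possible because each group of the comparison holds 1 library. Without centring every list median and gene value shifts up by 0.60, more than that spread, so all values of that setting count among those that moved further. The cause was not tested for the remaining changes, beyond the smaller or larger number of genes each setting keeps.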

Other observations

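Small RNAs were left out of the genes named by size. Of 59 in the comparison 32 were higher and 23 lower. All 1201 small RNA symbols, most of them outside the comparison, made up 1.96% of the early and 4.40% of the late library's summed FPKM. Ribonuclease T2 copies Rnaset2a and Rnaset2b summed to 313 FPKM early and 14.5 late, a difference of -4.95, beside -3.25 between PN5 and MII. Linker histone H1 genes summed to 4518 and 4407 FPKM, a difference of -0.64. Mitochondrial ribosome genes had 8 of 34 higher and 6 lower, with a median of 0.24, and aminoacyl-tRNA synthetases 5 of 19 higher and 3 lower, with a median of -0.25, which without centring becomes 0.35. The 10 most abundant genes held 12.1% of the early and 8.91% of the late sum, and Hist1h1a, Zbed3, Hist1h4c, Rn45s, Rpph1 and C86187 were among the 10 in both.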
